A study of Mus musculus with 20 samples.

Results

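Luminal epithelial cells of the mammary gland of control mice were compared by whether they carry Sca1 on their surface, over 3 arrays of Sca1-positive cells and 3 arrays of Sca1-negative cells, which are 6 of the 20 arrays and 2 of the 7 groups of the series. The arrays were chosen by their labelled gate, and all 19937 genes with a usable probe set were compared. Sca1-positive cells had 37 genes called higher and 115 called lower than Sca1-negative cells. The lower genes had the larger differences and included Ltf, Lcn2, Kit, Aldh1a3, Cd14, Mfge8 and Btn1a1, all known from luminal progenitor or milk-secreting cells. They also included Thbs1, Igfbp5 and Ccn2, which, like Lcn2, were at least as high in control basal cells as in Sca1-negative cells. That held for 39 of the 115 by group means. The receptors for estrogen and progesterone, known from the hormone-sensing cells of this lineage, had positive differences that did not pass the test.

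The mammary epithelium has an outer basal layer, which contracts, and an inner luminal layer, which lines the ducts and makes milk. Luminal cells are commonly divided into hormone-sensing cells, which carry the estrogen and progesterone receptors, and progenitor or alveolar cells, which carry the receptor tyrosine kinase Kit and the transcription factor Elf5 and give rise to secretory cells. Sca1, a small membrane-anchored protein encoded by Ly6a, is used in mice to sort the first kind from the second.

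Tamoxifen was given 4 weeks before the glands were taken, and the strain background was FVB/CD-1, mixed. The 2 compared groups are GFP-negative, CD45-negative, CD24-high cells, Sca1 positive or Sca1 negative, of K8-creERT2 control mice, which carry a tamoxifen-inducible Cre driven by the keratin 8 promoter and received tamoxifen, but lack the PIK3CA H1047R transgene. Set beside them are GFP-positive Sca1-positive cells (2 arrays) and GFP-positive Sca1-negative cells (3 arrays) of K8-creERT2/PIK3CA H1047R mice. In these mutants the same Cre turns on a mutant catalytic subunit of PI3K, and the GFP-positive gate holds recombined cells only, unlike the control gate. CD24-low, Sca1-negative, GFP-negative basal cells of the controls (3 arrays) serve for comparison of levels. Each array is a pool of glands from 2 to 3 estrus-synchronized mice, sorted in 3 independent sortings, and the RNA input was 2000 cells, amplified to obtain enough material.

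Values are deposited log2 levels, so a difference of 1 is a ratio of 2, and all differences are Sca1-positive minus Sca1-negative. A gene was called at an adjusted p under 0.05 in a limma fit over all 20 arrays, and "rose", "fell", "higher" and "lower" without further words are used for called genes. The 6 arrays had medians of 3.71 to 3.80, and the spread over probe sets was 1.72 on Sca1-positive replicate 2 against 1.81 to 1.85 on the other 5. Pearson correlations over probe sets were 0.947 to 0.961 within the gates and 0.938 to 0.955 between them. The 2 ranges overlap. In bulk samples, fewer cells of a type and less RNA per cell cannot be told apart.

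Both gates held markers of luminal epithelium, though not every marker was alike in both. The 20 genes of the general luminal list averaged 8.37 to 8.63 in Sca1-positive cells and 8.61 to 8.70 in Sca1-negative cells, against 6.03 to 6.55 in basal cells. None of the 20 was called. Their differences ran from -3.44 (Cldn1) to 0.56, and 10 of 20 were negative, as were 45.4% over all genes. The simple-epithelial keratin Krt8 was at 11.94, 11.93 and 11.80 in Sca1-positive cells, against 11.89, 11.85 and 11.91 in Sca1-negative cells. Cd24a, the surface protein that set the luminal gate, was at 10.90, 10.90 and 10.99 in Sca1-positive cells, against 10.88, 10.78 and 10.77 in Sca1-negative cells. Ptprc, which encodes the leukocyte antigen CD45 used to exclude blood cells, was at 3.54, 4.04 and 3.41 in Sca1-positive cells, against 3.50, 3.54 and 3.42 in Sca1-negative cells. Krt8, Cd24a and Ptprc did not pass the test. Ly6a had no probe set with a single gene symbol and was not analysed here, so the sort on Sca1 itself could not be checked at the RNA level. Of the 15 measured relatives in the Ly6 list, none was called, with a median difference of 0.02.

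Lists of markers of other cell types had low mean levels in both gates, with single members well above their list. Mean levels of the 19 measured immune genes ran from 3.50 to 3.74 over the Sca1-positive arrays and from 3.60 to 3.72 over the Sca1-negative arrays. The 17 endothelial genes averaged 3.70 to 3.73 in Sca1-positive cells and 3.56 to 3.68 in Sca1-negative cells. The 16 fibroblast genes averaged 4.00 to 4.10 in Sca1-positive cells and 3.94 to 4.06 in Sca1-negative cells. That mean does not show Dcn, the proteoglycan decorin, which was at 11.20, 10.86 and 11.55 in Sca1-positive cells and at 10.53, 10.02 and 10.89 in Sca1-negative cells, with a basal mean of 7.43. Dcn overlapped between the gates (difference 0.72, limma adjusted p = 0.794), while the fibroblast collagens Col1a1 and Col3a1 stayed at 4.52 or below on all 6 arrays. The macrophage marker Cd68 was at 4.78, 5.65 and 4.99 in Sca1-positive cells and at 5.62, 5.35 and 5.99 in Sca1-negative cells. The pericyte marker Mcam was at 4.83, 4.72 and 5.66 in Sca1-positive cells and at 6.12, 5.86 and 6.34 in Sca1-negative cells, with a basal mean of 8.21. The part of such cells in the results was not tested. No gene of these lists, nor of the 9 pericyte, 9 adipocyte and 3 erythroid genes, was called. The 21 basal genes, such as the basal keratins and smooth muscle actin, averaged 4.63 to 4.89 in Sca1-positive cells and 4.86 to 5.28 in Sca1-negative cells, against 8.84 to 8.96 in basal cells. None of the 21 was called, and 16 of 21 had a negative difference, as 45.4% of all genes had. The smooth muscle actin gene Acta2 was at 3.61, 5.15 and 3.98 in Sca1-positive cells and at 5.05, 5.43 and 6.01 in Sca1-negative cells, a difference of -1.25 (limma adjusted p = 0.106).

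**Figure D1:**
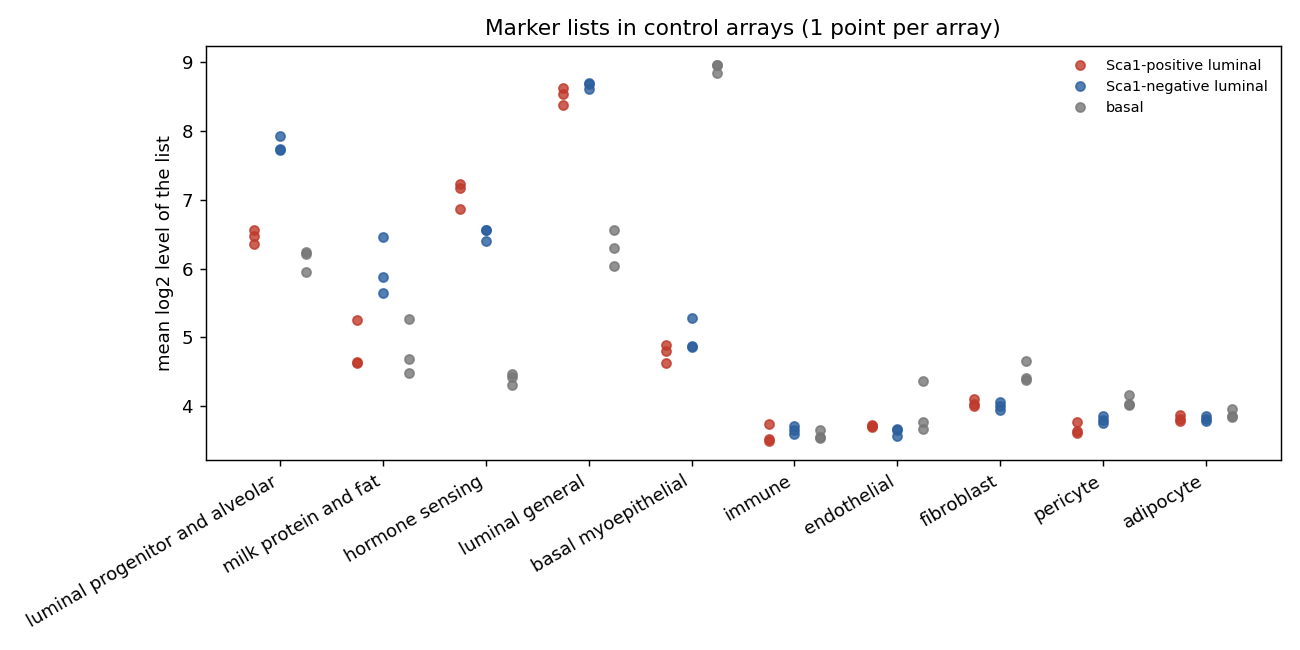
Mean log2 level of each marker list (y axis) on each control array, 1 point per array, for Sca1-positive luminal cells, Sca1-negative luminal cells and basal cells. The progenitor and alveolar list ran from 6.35 to 6.56 on the Sca1-positive arrays and from 7.72 to 7.92 on the Sca1-negative arrays, while the basal list ran from 4.63 to 5.28 over both luminal gates.

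Of 19937 genes, 37 were called higher in Sca1-positive cells (0.186% of genes tested) and 115 lower (0.577%), 152 in all (0.762%). At an unadjusted p under 0.05, 1563 genes passed (7.84%). The median difference over all genes was 0.016, and 54.6% of differences were positive. Size set the called groups apart. Of the lower genes, 94 of 115 differed by at least 1 on the log2 scale and 34 by at least 2, with a median of -1.52. Of the higher genes, 13 of 37 differed by at least 1 and none by at least 2, with a median of 0.85. All 152 had arrays that did not overlap between the gates, which 6.66% of all genes did upward and 6.65% downward. The count of calls fell to 82 without Sca1-negative replicate 1 and to 83 without Sca1-negative replicate 3. It was 43 (5 higher and 38 lower) when the 6 control luminal arrays were fitted alone. Those 43 held only 2 of the 37 higher genes and 33 of the 115 lower genes.

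**Figure D2:**
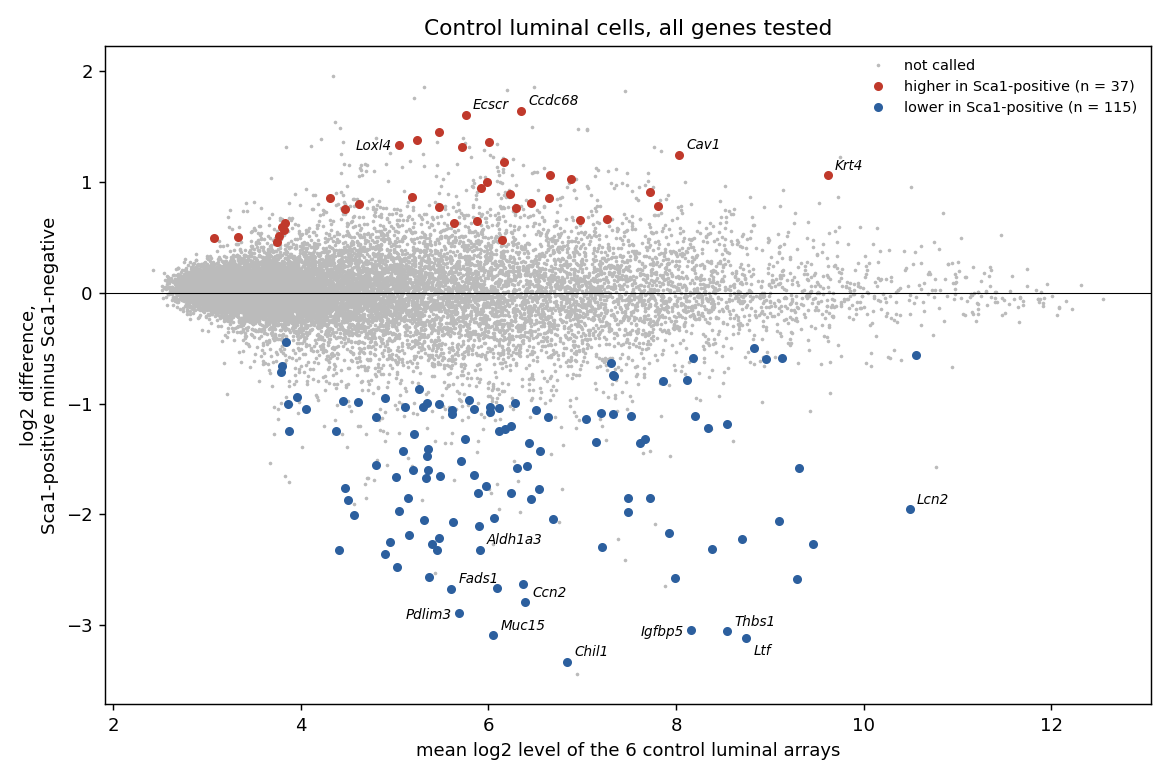
Log2 difference, Sca1-positive minus Sca1-negative (y axis), against the mean log2 level over the 6 control luminal arrays (x axis), 1 point per gene. The 115 lower genes reach -3.33 (Chil1), whereas the 37 higher genes reach 1.64 (Ccdc68).

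The progenitor and alveolar markers gave the largest share of called genes among the lists. Of 21 measured members, 9 fell in Sca1-positive cells and none rose, where 0.577% of all genes fell. Differences were negative for 20 of 21, against 45.4% of all genes. The list median was -1.57, against 0.016 over all genes. Members of this list, as of the other lists, were chosen with earlier results of these data known. These shares therefore describe the genes and are not a test. Ltf, which encodes the iron-binding milk protein lactotransferrin, was at 7.21, 7.23 and 7.13 in Sca1-positive cells, against 10.60, 9.91 and 10.42 in Sca1-negative cells. The gates were thus separated by far more than the spread within either, and Ltf fell by 3.12 in Sca1-positive cells (SE 0.31, limma adjusted p = 7.59e-05). Kit, the receptor for stem cell factor, was at 4.31, 4.36 and 4.22 in Sca1-positive cells, against 6.81, 6.34 and 6.68 in Sca1-negative cells. It fell by 2.32 (SE 0.24, limma adjusted p = 0.000134). In Sca1-positive cells Kit was close to its basal mean of 3.91.

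Aldh1a3, an enzyme that makes retinoic acid, was at 4.71, 4.68 and 4.85 in Sca1-positive cells, against 7.29, 7.12 and 6.79 in Sca1-negative cells. Its difference was -2.32 (SE 0.19, limma adjusted p = 2.04e-05), and its basal mean was 4.16. Kit and Aldh1a3 therefore shared a pattern of 1 high gate out of 3. Besides Ltf, Kit, Aldh1a3 and Lcn2, 5 members were called. The iron carrier transferrin (Trf) had a difference of -2.58, the copper-binding ceruloplasmin (Cp) of -2.29, the lipopolysaccharide co-receptor Cd14 of -2.22, the milk fat globule protein Mfge8 of -2.06 and the tetraspanin Tspan8 of -2.63. Trf was no longer called in 5 of the 6 fits that left out 1 array, all but that without Sca1-positive replicate 2.

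Not every progenitor marker was called. Elf5, the transcription factor that directs alveolar cells, was at 4.94, 4.96 and 4.48 in Sca1-positive cells, against 5.96, 6.22 and 7.25 in Sca1-negative cells. The arrays did not overlap, but the difference of -1.69 (SE 0.43) did not pass (limma adjusted p = 0.107), and it was called in 0 of 17 alternative fits. Wfdc18 had a difference of -1.57 (limma adjusted p = 0.149) and the transcription factor Ehf one of -0.99 (limma adjusted p = 0.796). Sox9, a transcription factor of luminal progenitors, had a difference of -0.05, and the integrin Itga2 one of -0.06.

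Secreted and membrane proteins of innate defence fell in part. Of 21 measured members, 5 fell (Chil1, Ltf, Cd14, Lcn2 and Tlr2), where 0.577% of all genes fell. Ltf, Cd14 and Lcn2 also stand in the progenitor list. The list median was -0.03, against 0.016 over all genes. Lcn2, which encodes a lipocalin that binds bacterial siderophores, was at 8.94, 9.71 and 9.90 in Sca1-positive cells, against 11.33, 11.48 and 11.60 in Sca1-negative cells. It fell by 1.95 (SE 0.19, limma adjusted p = 5.41e-05). Basal cells averaged 11.51 for Lcn2, about as high as Sca1-negative luminal cells. Chil1, a secreted chitinase-like glycoprotein, was at 4.75, 3.97 and 6.82 in Sca1-positive cells, against 7.26, 8.52 and 9.74 in Sca1-negative cells. The spread within each gate was wide, and Chil1 had the largest difference among called genes, -3.33 (SE 0.62, limma adjusted p = 0.0184). It was not called without Sca1-positive replicate 1 or 2, nor without Sca1-negative replicate 2 or 3. Tlr2, a receptor for bacterial lipoproteins, had a difference of -1.32 (limma adjusted p = 0.0398) that was called in 1 of the 6 fits without 1 array, and Lbp, which carries lipopolysaccharide, had one of -2.42 that did not pass (limma adjusted p = 0.0904).

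The start regions of Lcn2 and Ltf are shown because both genes encode secreted defence proteins that fell and because both hold the pattern TTGCNNAA, searched on both strands as a letter match to sites of C/EBP factors. Each is the 250 bases upstream of the gene's start in RefSeq on the GRCm38.p6 build, 5′ to 3′ on the gene's strand, with the match in capitals. Lcn2 (chr2:32387740-32387989, minus strand) and Ltf (chr9:111019042-111019291, plus strand) read:
Lcn2: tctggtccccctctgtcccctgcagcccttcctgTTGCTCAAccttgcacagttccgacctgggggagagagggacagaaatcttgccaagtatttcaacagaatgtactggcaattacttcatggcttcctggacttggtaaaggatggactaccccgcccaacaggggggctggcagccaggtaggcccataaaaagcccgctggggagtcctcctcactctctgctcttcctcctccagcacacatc
Ltf: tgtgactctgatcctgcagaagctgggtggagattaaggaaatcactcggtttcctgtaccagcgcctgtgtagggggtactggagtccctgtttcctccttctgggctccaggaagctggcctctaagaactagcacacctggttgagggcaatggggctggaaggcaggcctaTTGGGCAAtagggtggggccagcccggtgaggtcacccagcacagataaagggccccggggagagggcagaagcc
The pattern was present in 14 of the 94 lower genes with such a sequence (14.9%), in 3 of the 27 higher genes (11.1%) and in 1569 of the 15613 tested genes with one. The pair shown was chosen after the matches were seen, and a match is a description of letters, not of binding.

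In all, 15 patterns were searched in the same windows on both strands. The pattern GCCNNNGGC, a letter match to AP-2 sites, was in 33 of 94 lower genes (35.1%), in 11 of 27 higher genes (40.7%) and in 19.4% of tested genes. Base composition of the windows was not compared. The STAT pattern TTCNNNGAA was in 3.19% of lower, 3.7% of higher and 7.71% of tested genes, and its narrower form TTCCNGGAA in 1.06% of lower, 0 higher and 1.17% of tested genes. The ETS pattern GGAAGT was in 21.3% of lower, 25.9% of higher and 23.5% of tested genes, and CCGGAAGT, which contains it, in 1.06% of lower, 3.7% of higher and 4.51% of tested genes. The AP-1 pattern TGACTCA was in 5.32% of lower, 14.8% of higher (4 of 27) and 4.75% of tested genes. The TEAD pattern GGAATG was in 20.2% of lower, 14.8% of higher and 13.2% of tested genes, and the forkhead pattern TGTTTAC in 7.45% of lower, 3.7% of higher and 3.18% of tested genes. The NF-kappa-B-like pattern GGAANTCCC was in 2.13% of lower, 11.1% of higher (3 of 27) and 1.86% of tested genes, and TTGCGCAA, a form of the pattern printed above, in 1.06% of lower, 0 higher and 0.224% of tested genes. The other 4, the full estrogen response element, a pair of longer NF-kappa-B sites and a longer C/EBP palindrome, were in no called gene and in at most 0.128% of tested genes.

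Milk genes fell in part. Of 14 measured members of the milk protein and fat list, 2 fell and none rose, where 0.577% of all genes were called lower. Differences were negative for 12 of 14, against 45.4% of all genes, and the median was -0.95. For 6 of 14 the arrays did not overlap downward, as for 6.65% of all genes. Ltf and Mfge8, given above as milk proteins that fell, stand in the progenitor list and are not counted here. Btn1a1, which encodes butyrophilin of the milk fat globule membrane, was at 4.16, 4.19 and 3.83 in Sca1-positive cells, against 6.44, 5.86 and 6.42 in Sca1-negative cells. It fell by 2.18 (SE 0.31, limma adjusted p = 0.00209). The membrane mucin Muc1 fell by 2.67 (limma adjusted p = 0.0398), a call that held only without Sca1-positive replicate 1 among the 6 fits that left out 1 array. The casein gene Csn1s1 was at 6.46, 7.85 and 5.365 in Sca1-positive cells, against 8.815, 9.77 and 9.04 in Sca1-negative cells. The gates did not overlap for it, but its difference of -2.65 did not pass (limma adjusted p = 0.162). Csn2 varied more widely than Csn1s1 between arrays of 1 gate. The casein gene Csn2 was at 5.73, 8.60 and 4.49 in Sca1-positive cells, against 7.12, 10.37 and 8.001 in Sca1-negative cells, with replicate 2 highest in both gates, and its difference of -2.22 did not pass (limma adjusted p = 0.67).

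Other lower genes with the largest differences belonged to none of the lists. Thbs1, which encodes the matrix glycoprotein thrombospondin 1, was at 6.64, 7.01 and 7.42 in Sca1-positive cells, against 10.004, 10.08 and 10.13 in Sca1-negative cells. It fell by 3.05 (SE 0.21, limma adjusted p = 4.35e-06). Its basal mean was 10.13, as high as the Sca1-negative arrays. Igfbp5, which binds insulin-like growth factors, was at 7.34, 5.87 and 6.72 in Sca1-positive cells, against 9.83, 9.49 and 9.73 in Sca1-negative cells, a difference of -3.04 (SE 0.26, limma adjusted p = 2.34e-05). Ccn2, a matricellular protein known as a target of YAP and TEAD, was at 4.98, 4.48 and 5.54 in Sca1-positive cells, against 8.06, 7.49 and 7.81 in Sca1-negative cells. It fell by 2.79 (SE 0.31, limma adjusted p = 0.000215). The membrane mucin Muc15 differed by -3.09, the actin-associated protein Pdlim3 by -2.89 and the prostaglandin synthase Ptgs2 by -2.57. Ptgs2 was called in only 1 of the 6 fits that left out 1 array. With the 6 control luminal arrays alone, Ptgs2 passed (limma adjusted p = 0.0146). Muc15 (limma adjusted p = 0.0651) and Pdlim3 (limma adjusted p = 0.0764) did not pass there.

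**Figure D3:**
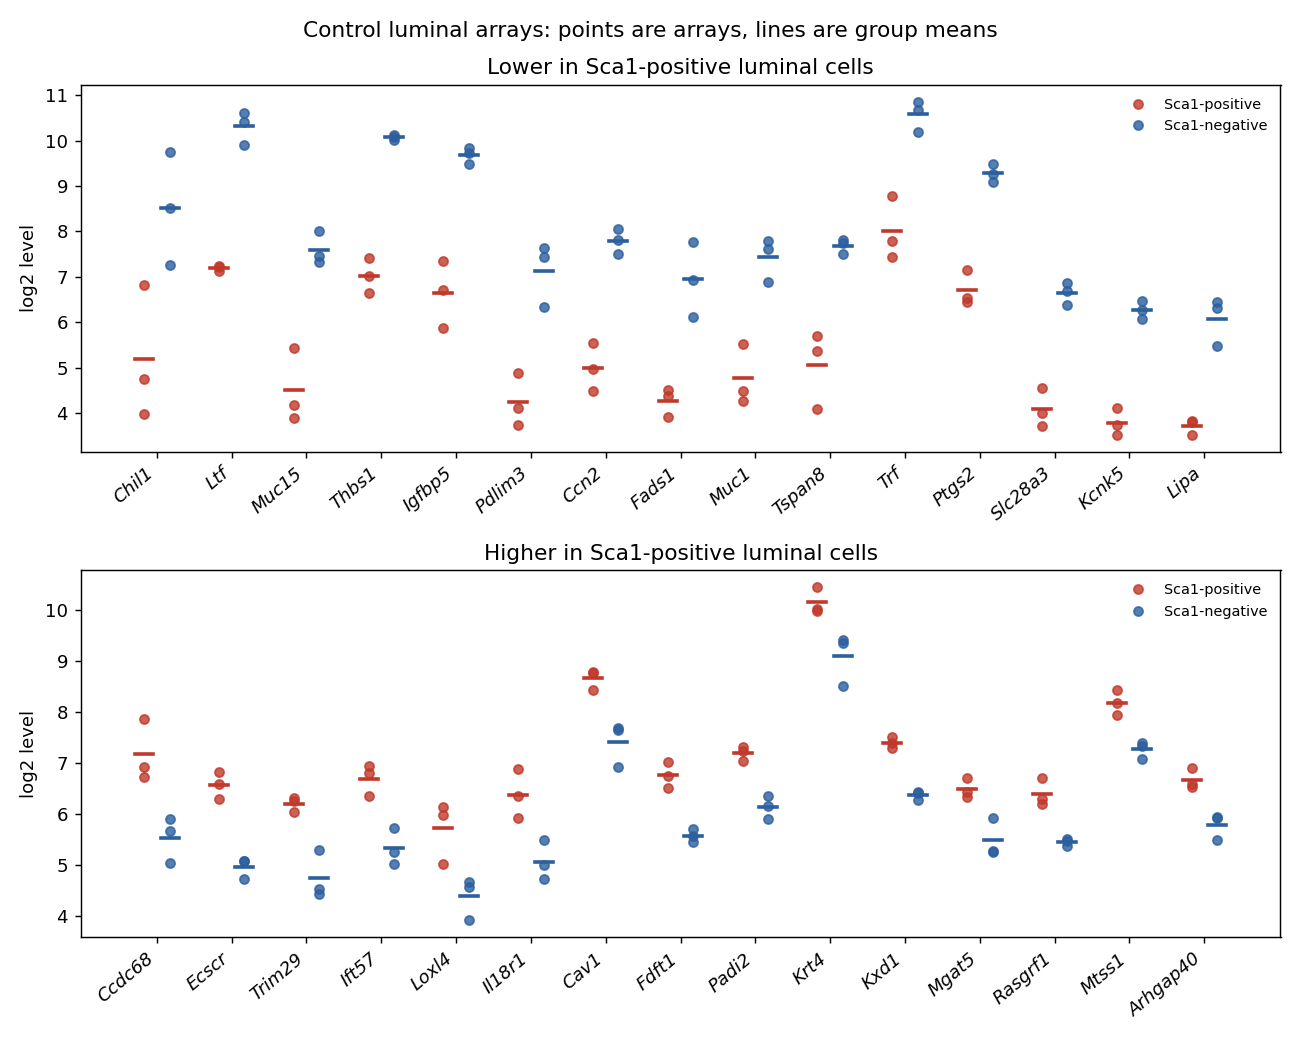
Log2 level (y axis) of the 15 called genes with the largest negative and the 15 with the largest positive difference, on each control luminal array, Sca1-positive to the left of Sca1-negative, with lines at group means. The gates do not overlap for any of the 30 genes, and the separations are wider for the lower genes.

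Several of these genes were also high in basal cells. Of the 115 lower genes, 24 (20.9%) had a basal mean at least 1 above the Sca1-negative mean, which 3.7% of all genes had. The 3.7% counts genes of every level, so the shares are not of like genes. Of the 115, 0 had a higher luminal mean at or under the all-gene median of 3.92. A basal mean at or above the Sca1-negative mean was found for 39, while 45 lay between the luminal means and 31 were at or below the Sca1-positive mean. Shares over all genes were not computed for these last counts. The basal mean was 10.56 for Ccn2, 9.81 for Pdlim3 and 10.47 for Igfbp5. Egfr, the epidermal growth factor receptor, was at 4.17, 3.96 and 4.51 in Sca1-positive cells, against 6.38, 5.59 and 6.25 in Sca1-negative cells, with a basal mean of 7.30. It fell by 1.85 (SE 0.23, limma adjusted p = 0.000803) and was the only called member of 17 in the EGF family list. The AP-2 gamma gene Tfap2c fell by 1.41 (limma adjusted p = 0.00833) with a basal mean of 7.79. The basal marker list averaged slightly less in Sca1-positive cells, as given above, with Krt5 at 4.75, 4.72 and 5.01 in them and at 4.56, 4.97 and 5.85 in Sca1-negative cells. The part of basal cells in these differences was not tested. Other lower genes were low in basal cells, with basal means of 5.02 for Ltf, 5.75 for Cd14, 4.19 for Muc1, 3.70 for the nucleoside transporter Slc28a3 and 3.55 for the potassium channel Kcnk5. Slc28a3 differed by -2.57, Kcnk5 by -2.48 and the lysosomal lipase Lipa by -2.36 between the gates. Lipa was called in 1 of the 6 fits that left out 1 array, but passed with the 6 control luminal arrays alone (limma adjusted p = 0.0345).

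Lists of regulators and metabolic genes gave 0 to 2 calls each. Of 29 luminal lineage factors, Tfap2c and Nfib fell and none rose. Nfib, a transcription factor that acts with Stat5 on milk genes, had a difference of -1.22 (limma adjusted p = 0.0291), which was -0.81 without Sca1-positive replicate 2 and was not called without any 1 of the Sca1-negative arrays. Of 31 nuclear receptors, Rora differed by -0.97 and Nr4a2 by -1.04, both called, Nr4a2 in only 1 of the 6 fits that left out 1 array. Of 31 Wnt ligands and receptors, Wnt5b fell by 1.64 (limma adjusted p = 0.00829). The fatty acid desaturases Fads1 and Fads2 differed by -2.67 (Fads1) and -1.66 (Fads2), the only 2 called of 22 fatty acid synthesis genes. The phosphofructokinase gene Pfkp fell by 1.01, the only 1 called of 13 glycolysis genes, and was called in 1 of the 6 fits without 1 array. None of 20 Notch pathway, 24 cell cycle, 19 immediate early and stress or 25 interferon and antigen presentation genes was called, with medians of 0.00, 0.05, -0.05 and 0.15. Over the whole table, 0.762% of genes were called.

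**Figure D4:**
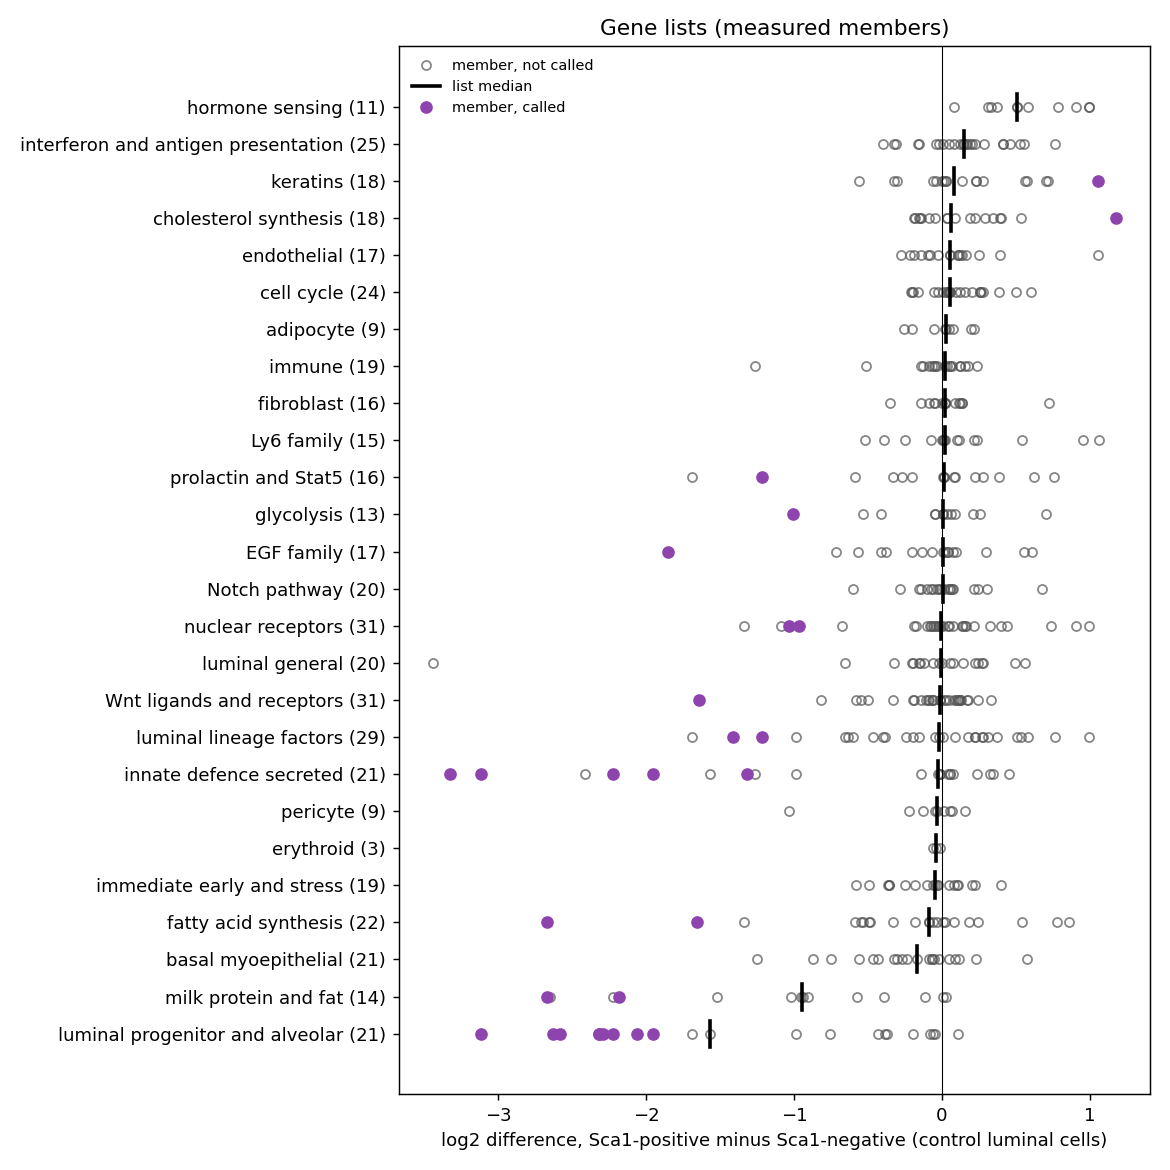
Log2 difference, Sca1-positive minus Sca1-negative in control luminal cells (x axis), of each measured member of 26 gene lists, with the number measured in brackets and a bar at each list median. The progenitor and alveolar list (median -1.57) and the milk list (median -0.95) lie to the left, and the hormone-sensing list (median 0.51) lies to the right without a called member.

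The hormone-sensing markers were not called, although all 11 measured had a positive difference, as 54.6% of all genes had. Their median was 0.51, against 0.016 over all genes. Pgr, the progesterone receptor, was at 8.32, 8.82 and 8.62 in Sca1-positive cells, against 7.59, 7.62 and 7.57 in Sca1-negative cells. The arrays did not overlap, but the difference of 0.996 (SE 0.30) did not pass (limma adjusted p = 0.211). Esr1, the estrogen receptor alpha, was at 6.49, 6.18 and 7.22 in Sca1-positive cells, against 6.21, 5.28 and 5.69 in Sca1-negative cells. These overlapped, and the difference was 0.91 (SE 0.26, limma adjusted p = 0.189). Neither receptor was called in any of 17 alternative fits. Prom1, a surface protein of hormone-sensing cells, had a difference of 0.78 (limma adjusted p = 0.35) and Msx2, a homeobox factor, 0.99 (limma adjusted p = 0.0625), with arrays that did not overlap. Msx2 was called with array weights, in genes at or above the median level, and in the 9 control arrays alone.

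Hormone-sensing markers were also present in the Sca1-negative gate. The list averaged 6.86 to 7.23 in Sca1-positive cells and 6.40 to 6.57 in Sca1-negative cells, against 4.32 to 4.46 in basal cells. Pgr had a basal mean of 3.83 and Esr1 of 4.20. Foxa1, a factor that opens chromatin for the estrogen receptor, was at 9.002, 7.09 and 7.73 in Sca1-positive cells, against 7.96, 6.96 and 7.97 in Sca1-negative cells, with a basal mean of 3.90. The gates overlapped for it.

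Of the 37 higher genes, only Krt4 and Fdft1 belonged to any of the 26 lists. Ccdc68, a centriole protein, was at 6.72, 7.87 and 6.92 in Sca1-positive cells, against 5.03, 5.67 and 5.89 in Sca1-negative cells. It rose by 1.64 (SE 0.29, limma adjusted p = 0.012) and was not called without Sca1-negative replicate 1. Ecscr, which encodes a surface protein first known from endothelial cells, was at 6.58, 6.81 and 6.29 in Sca1-positive cells, against 5.07, 4.72 and 5.08 in Sca1-negative cells. It rose by 1.60 (SE 0.22, limma adjusted p = 0.00168), a call kept in each fit that left out 1 array. Beside it, the 17 genes of the endothelial list averaged 3.70 to 3.73 in Sca1-positive cells and 3.56 to 3.68 in Sca1-negative cells. Of those 17, 3 had arrays that did not overlap upward and 3 downward, and none was called. Over all genes, 6.66% did not overlap upward and 6.65% downward. Eng, the endoglin gene, was at 5.59, 5.01 and 4.85 in Sca1-positive cells, against 4.16, 3.96 and 4.18 in Sca1-negative cells, a difference of 1.06 (limma adjusted p = 0.182). Vwf, the von Willebrand factor gene, had a difference of 0.39 without overlap (limma adjusted p = 0.184). The endothelial cadherin gene Cdh5 had a difference of 0.16 (limma adjusted p = 0.969), and its arrays overlapped. The part of endothelial cells in the Ecscr difference was not tested.

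Krt4, a keratin of stratified epithelia, was the only called member of 18 keratins. It was at 9.97, 10.44 and 10.02 in Sca1-positive cells, against 9.41, 9.35 and 8.50 in Sca1-negative cells, and rose by 1.06 (SE 0.19, limma adjusted p = 0.0164). It was not called without Sca1-positive replicate 2. Its basal mean was 3.80, well below both luminal gates. Cav1, the main protein of caveolae, was at 8.77, 8.76 and 8.43 in Sca1-positive cells, against 7.67, 7.64 and 6.91 in Sca1-negative cells, and rose by 1.24 (SE 0.22, limma adjusted p = 0.0121). Its basal mean of 9.41 was above both, and it was not called without Sca1-positive replicate 1 or Sca1-negative replicate 3. Squalene synthase (Fdft1) rose by 1.18 (limma adjusted p = 0.00451), alone among 18 cholesterol synthesis genes.

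The remaining higher genes with the largest differences had varied functions. Trim29 rose by 1.45, the ciliary transport protein Ift57 by 1.36, the matrix crosslinking enzyme Loxl4 by 1.33, the interleukin 18 receptor Il18r1 by 1.31, the arginine deiminase Padi2 by 1.06, the lysosome positioning protein Kxd1 by 1.03 and the glycan-branching enzyme Mgat5 by 1.001. The Ras activator Rasgrf1 rose by 0.95, the actin-binding Mtss1 by 0.91 and Arhgap40 by 0.89. Most of these calls were lost when an array was left out: among the 6 fits that left out 1 control luminal array, Padi2 and Kxd1 were called in 0, Mgat5 and Mtss1 in 1, Trim29 and Ift57 in 2, Loxl4 in 3, Rasgrf1 and Arhgap40 in 4 and Il18r1 in 6. Of the 37 higher genes, 26 had a basal mean at or below the Sca1-negative mean, 7 lay between the luminal means and 4 were at or above the Sca1-positive mean.

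Several uncalled genes had gates that did not overlap, of which Cldn1 and Ly6d are given here. Cldn1, which encodes a tight junction protein, was at 5.10, 5.19 and 5.38 in Sca1-positive cells, against 8.28, 9.26 and 8.46 in Sca1-negative cells. Its difference of -3.44 was the most negative of all 19937 genes, but it did not pass in the fit over 20 arrays, where the spread is shared over 7 groups (limma adjusted p = 0.157). With the 6 control luminal arrays alone it passed (limma adjusted p = 0.0132), and likewise with the 9 control arrays (limma adjusted p = 0.0027). Ly6d, a relative of Ly6a, was at 11.10, 10.92 and 10.92 in Sca1-positive cells, against 10.05, 9.93 and 10.11 in Sca1-negative cells. Its difference of 0.95 did not pass over 20 arrays (limma adjusted p = 0.823) and passed in the 6 arrays alone (limma adjusted p = 0.0317) but not in the 9 control arrays (limma adjusted p = 0.136). Cldn1 belongs to the general luminal list, and its basal mean was 5.22. Ly6d belongs to the Ly6 list, and both genes were singled out here after their values were seen. Csn1s1, Lbp and the nuclear receptor Nr4a3 (difference -1.09) were likewise uncalled without overlap, with larger differences than Ly6d. Nr4a3 passed in the 6 arrays alone (limma adjusted p = 0.0286) but not in the 9 control arrays (limma adjusted p = 0.11).

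The same Sca1 comparison in PIK3CA H1047R mutants used other arrays. It called 813 of 19937 genes (4.08%), 469 higher (2.35%) and 344 lower (1.73%), over 2 Sca1-positive and 3 Sca1-negative arrays. The count of 813 was 390 without mutant Sca1-positive replicate 3 and 460 without replicate 1. Of the 115 genes lower in control Sca1-positive cells, 89 (77.4%) were also called lower in mutants, which is 25.9% of the 344. In mutants 114 of the 115 had a negative difference, all but the endosomal Rab5a (0.03 in mutants and -0.63 in controls, called in 1 of the 6 fits without 1 array), where 54.4% of all genes had one. Of the 37 higher genes, 22 (59.5%) were also called higher in mutants, which is 4.69% of the 469, and 34 had a positive difference, as 45.6% of all genes had. Both comparisons come from 1 fit with a shared spread, and the overlap was not tested.

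Median differences over the genes called in controls were close in both genotypes. These genes were picked by their control differences, so like medians do not show like differences for single genes. The 115 lower genes had a median of -1.46 in mutants and -1.52 in controls, and the 37 higher genes had a median of 0.85 in both. Kit differed by -2.27 in mutants and by -2.32 in controls, and Aldh1a3 by -2.30 in mutants and by -2.32 in controls. Lcn2 differed by -0.75 in mutants (limma adjusted p = 0.0558) and by -1.95 in controls, and Chil1 by -1.34 in mutants (limma adjusted p = 0.475) and by -3.33 in controls. The difference between genotypes did not pass for Lcn2 (interaction 1.20, limma adjusted p = 0.144), for Chil1 (interaction 1.99, limma adjusted p = 0.879) or for Ltf (interaction 1.41, limma adjusted p = 0.459).

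The test of that difference, the interaction, called 28 of 19937 genes (0.14%), 22 with a higher difference in mutants (0.11%) and 6 with a lower one (0.0301%), while 1129 passed at an unadjusted p under 0.05 (5.66%). It shares its arrays with both comparisons. Of the 28, 4 are among the 37 genes higher in controls and 1, Nav3, among the 115 lower. The 4 were Krt4, Cav1, Rasgrf1 and Arhgap40, with larger Sca1 differences in mutants. Krt4 differed by 3.88 in mutants and by 1.06 in controls, Cav1 by 3.24 in mutants and by 1.24 in controls, and Rasgrf1 by 3.01 in mutants and by 0.95 in controls. For Krt4 the mutant Sca1-positive arrays were at 8.40 and 8.44 and the mutant Sca1-negative arrays at 4.59, 4.55 and 4.49. The mutant Sca1-negative cells were thus the low group for Krt4 among the 4 luminal groups. For the hormone-sensing list, 8 of 11 were called higher in mutants, where 2.35% of all genes were. The list median was 2.19 in mutants, against 0.51 in controls, where 0 of 11 were called. Of the 11, 1 was called in the interaction, the serotonin synthesis enzyme Tph1. Pgr differed by 3.38 in mutants and by 0.996 in controls, and its interaction of 2.39 did not pass (limma adjusted p = 0.0519).

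**Figure D5:**
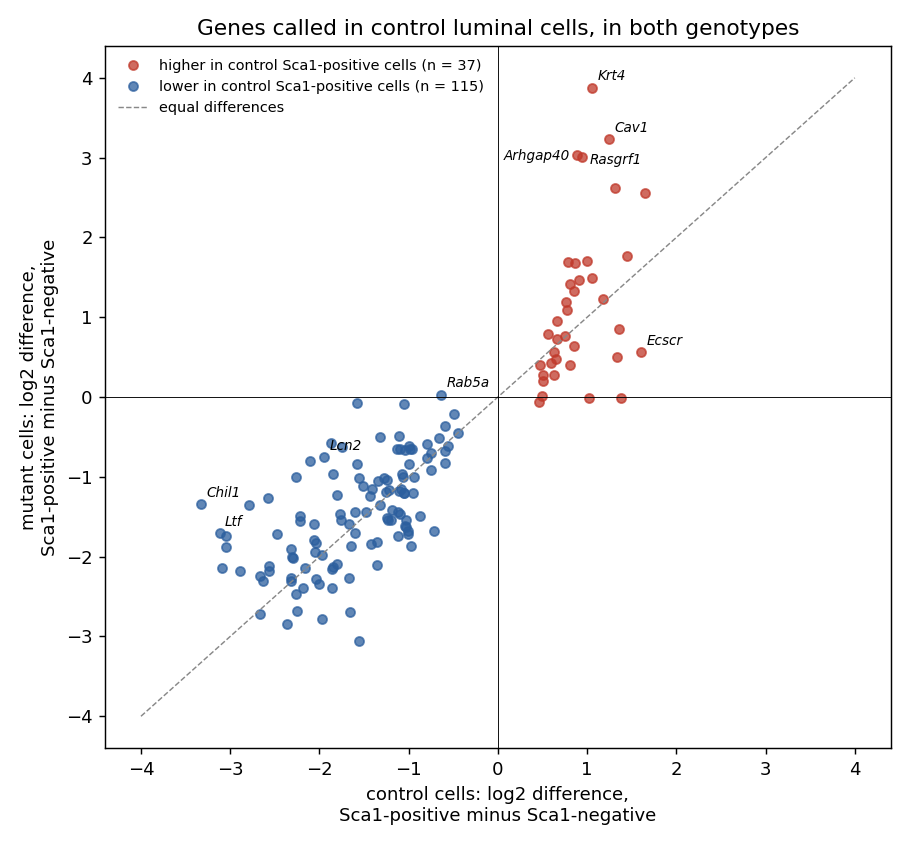
Sca1 difference in mutant cells (y axis) against the Sca1 difference in control cells (x axis), log2, for the 152 genes called in controls, with a dashed line of equal differences. Krt4, Cav1, Rasgrf1 and Arhgap40 lie far above the line, and Rab5a is the only lower gene above 0 in mutants.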

How the data were processed

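Per the labels' protocols, RNA of 2000 sorted cells per sample was amplified before labelling for Affymetrix mouse gene arrays. The authors deposited log2 probe set values, 1 column per array, from 1.98 to 13.07 with none missing; the unit was read from the values. Per the submitters' processing notes, affy was used; its version and role, the normalization and the filters are not given in the sources used here. No further normalization was applied. Of 34760 probe sets, 21640 had a single gene symbol in the platform table, 1321 had several and 11799 had none; only the first were used. RefSeq (GRCm38.p6) held 21553 of these by gene number and changed 0 symbols. For 954 genes with more than 1 probe set, that with the highest mean over 20 arrays was taken, leaving 19937 genes with no filter on level.

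All 20 arrays entered 1 model with a mean for each of 7 groups, fitted with limma 3.58.1 (lmFit, eBayes) in R 4.3.3, with 13 residual degrees of freedom, and adjusted by Benjamini-Hochberg within each contrast. It treats arrays of 1 pool as independent. The procedure was tested on simulated data. Named genes were the 15 most higher and 15 most lower called genes with non-overlapping arrays (leaving out predicted and clone names), called list members, sort and receptor genes, the 6 largest called interactions, and up to 3 uncalled members of a list with the largest differences; others named were chosen after their values were seen. Members and lists were chosen with earlier results of these data known. The alternatives tried were a replicate block, fixed or random, array weights, other eBayes settings, 2 rescalings, probe set means, a level filter, smaller sets of arrays, a fold limit and leaving out each of the 11 luminal arrays in turn; the 9 basal arrays were not left out one by one. Precision is limited by the 2 or 3 arrays of a group, and p-values measure the spread between such pools.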

Additional observations from a re-analysis of the deposited data

Results flagged for a closer look

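The Sca1 difference differed between mutant and control mice, by the interaction in the limma fit, for 28 genes. The 6 with the largest interactions (mutant minus control, log2) were Tph1, with 3.16, Plac8, with 3.05, R3hdml, with 2.97, Krt4, with 2.82, Pwwp3b, with 2.80, and Gipc2, with 2.77. Limma adjusted p for the 6 ran from 0.00113 (Krt4) to 0.0104 (Gipc2). In controls, only Krt4 of the 6 was called.

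Tph1 was at 7.31 and 6.81 in mutant Sca1-positive cells and at 3.19, 3.54 and 3.45 in mutant Sca1-negative cells, against 7.42, 8.46 and 7.90 in control Sca1-positive cells and 6.97, 7.34 and 7.94 in control Sca1-negative cells. The mutant Sca1-negative group was the low one. Pwwp3b had another pattern, at 7.96 and 6.54 in mutant Sca1-positive cells and 3.59, 3.46 and 3.86 in mutant Sca1-negative cells, against 3.93, 4.51 and 4.40 in control Sca1-positive cells and 3.55, 3.35 and 3.51 in control Sca1-negative cells, so that the mutant Sca1-positive group was the high one. With 2 mutant Sca1-positive arrays, the count of 28 genes was 46 without replicate 1 of that group and 20 without replicate 3.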

How the results depend on the processing

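All 152 genes called in controls kept the sign of their difference in each of 17 alternative fits. Array weights gave 231 calls (80 higher and 151 lower), 1493 in mutants and 72 in the interaction. The 6 control luminal arrays alone gave 43 (5 higher and 38 lower) and the 9 control arrays 66 (11 higher and 55 lower), with fewer arrays to estimate the spread. Of the 37 higher genes, 2 were called in the 6 arrays and 8 in the 9. Of the 115 lower genes, 33 were called in the 6 arrays and 50 in the 9. A fold limit of 1 left 13 of the higher genes. Leaving out 1 control luminal array at a time gave 82 to 120 calls, 17 to 46 higher and 64 to 84 lower. Each of these fits held 12 to 20 of the 37 higher genes and 57 to 72 of the 115 lower genes. The higher count was 24 without Sca1-positive replicate 3 and 17, 22 and 19 without Sca1-negative replicates 1, 2 and 3, and the lower count was 74 without Sca1-positive replicate 2 and 65 and 64 without Sca1-negative replicates 1 and 3. The ranges were 390 to 648 in mutants and 20 to 46 in the interaction, and the interaction count was 45 without control Sca1-positive replicate 1. Of the called genes, 45 of 115 lower and 5 of 37 higher were called in all 13 fits of 19 or 20 arrays. Of 46 named called genes, 14 were called in every alternative other than the replicate block of 6 arrays, and 15 of 79 named uncalled genes were called in some alternative; the cause was not tested.

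Samples of the 2 gates share replicate numbers, but the labels do not say what a number marks. Deviations of same-numbered samples correlated at 0.078, 0.103 and 0.126, and each array correlated best with its own number, which is a hint from the data and not from the design. With the replicate block over 20 arrays the calls were 150 (36 higher and 114 lower), 757 in mutants and 32 in the interaction. Of the 36 higher genes 29, and of the 114 lower genes 98, were also called without the block. With the replicate block in the 6 arrays alone, 0 genes were called, higher or lower (limma, smallest adjusted p 0.0723, 1807 at an unadjusted p under 0.05). Genes near the arrays' floor allow no statement on small differences.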
